A study of Homo sapiens with 2 samples.

Results

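The enzymes that make, recycle and break down nucleotides were followed in 22Rv1, a human line of castration-resistant prostate cancer, with and without depletion of EIF3F. The set held 36 genes for purine, pyrimidine and deoxynucleotide synthesis and salvage, picked by name for these roles from the 57351 gene symbols of the expression table, and all 36 were listed there once. RNA-seq had been run on 1 library of cells that carried a short hairpin RNA against EIF3F (shEIF3F) and on 1 library of cells that carried the shRNA vector control (shCON). EIF3F is subunit f of eIF3, a factor that starts translation, and its transcript stood at 17.0 TPM in shEIF3F and 991 TPM in shCON. With 1 library per group, the differences below have no replicate check, error or p-value, and effects of EIF3F loss and other effects of the hairpin or of the derivation of the cells cannot be told apart.

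Levels are in TPM, the usual unit of transcript abundance, which is scaled to the library total and to transcript length, so that levels can be set side by side between genes. The log2 ratio is log2((shEIF3F TPM + 1) / (shCON TPM + 1)), and a gene at -1 or less, or at 1 or more, is called at least 2-fold lower or higher, a rule of size and not a test. Fold values printed with decimals, such as 41.5-fold for RRM2, are quotients of TPM without the added 1 (the pseudocount). They can therefore be larger than the log2 ratio beside them implies. In bulk RNA, fewer cells that express a gene and less of its RNA per cell cannot be told apart.

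Cells build purines on an activated ribose, phosphoribosyl pyrophosphate (PRPP), and build the pyrimidine ring first and join it to PRPP afterwards. Ribonucleotide reductase turns ribonucleotides into the deoxynucleotides of DNA, and thymidylate synthase adds the base that is particular to DNA. Salvage enzymes reuse free bases and nucleosides. Several of the deoxynucleotide genes are known to be switched on by E2F factors as cells enter S phase, and many genes of ring synthesis are known targets of MYC.

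In shEIF3F, 20 of the 36 genes (55.6%) were at least 2-fold lower, 1 was at least 2-fold higher (2.78%) and 15 were within 2-fold. The background was all 13306 genes whose mean over the libraries reached 1 TPM, and 25.5% of them were at least 2-fold lower and 8.43% at least 2-fold higher. All 36 genes reached that mean. Their median log2 ratio was -1.07, beside -0.36 for all genes, and ratios ran from -6.11 for TK1 to 3.69 for NT5E. With the median of all genes set to 0 (centring), 13 of the 36 were at least 2-fold lower (36.1%, against 16.0% of all genes) and the median was -0.72. Removing the trend of ratio with transcript GC content left 14 lower (38.9%, against 13.9% of all genes). The summed level of the 36 genes was 2942 TPM in shEIF3F and 6600.0 TPM in shCON.

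**Figure D1:**
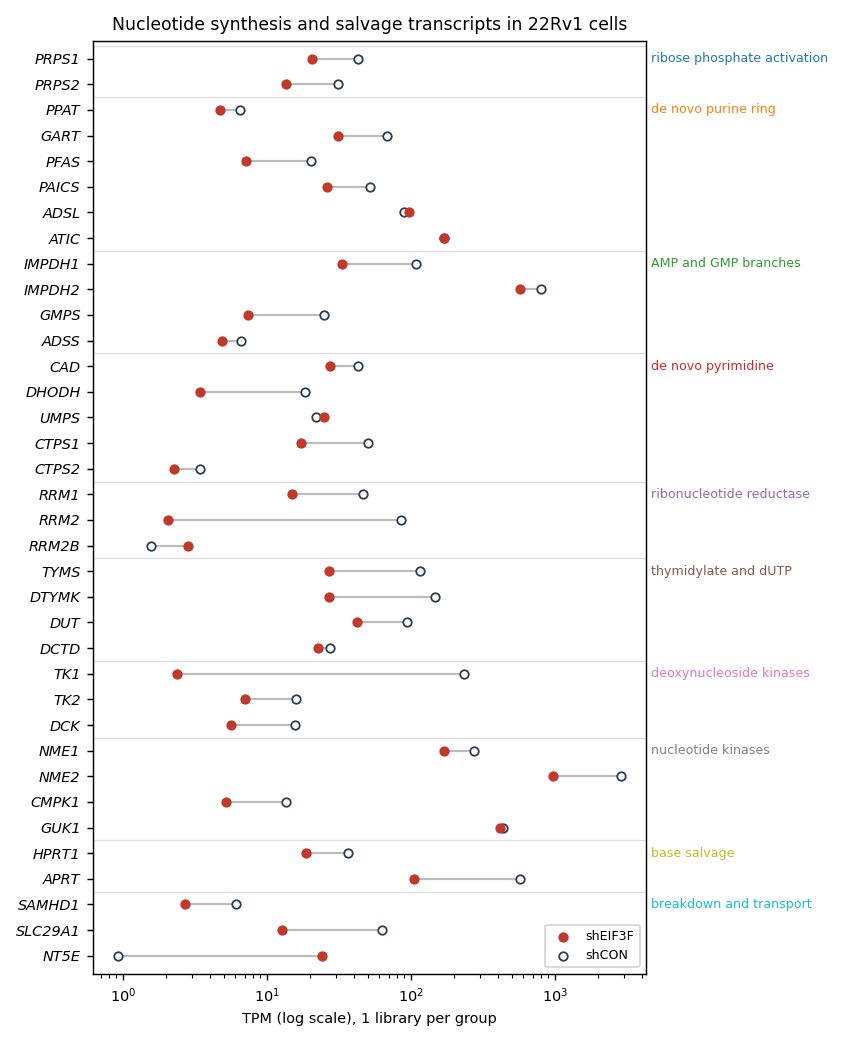
TPM of each of the 36 transcripts on a log axis, filled points for shEIF3F and open points for shCON, 1 library each, grouped by step of the pathway. TK1 and RRM2 show the widest gaps with shEIF3F on the left, and NT5E, at 24.0 TPM in shEIF3F and 0.93 TPM in shCON, the widest with shEIF3F on the right.

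Transcripts for deoxynucleotide supply held the 2 lowest ratios of the set, those of TK1 and RRM2. Ribonucleotide reductase consists of a large subunit, RRM1, and a small subunit that carries the tyrosyl radical, which is RRM2 in dividing cells and RRM2B, a p53 target, outside S phase. RRM2 stood at 2.07 TPM in shEIF3F and 85.8 TPM in shCON, 41.5-fold lower (log2 ratio -4.82). RRM1 stood at 14.9 TPM in shEIF3F and 46.2 TPM in shCON (-1.57). RRM2B went the other way, at 2.84 TPM in shEIF3F and 1.56 TPM in shCON, within 2-fold (0.59). RRM2B was thus 57.8% of small subunit transcripts in shEIF3F and 1.79% in shCON, although its own level stayed low in both libraries. RRM2 and RRM2B together came to 4.91 TPM in shEIF3F and 87.4 TPM in shCON, so that RRM1 exceeded them 3.03 times in shEIF3F and stood at 0.529 times their sum in shCON.

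The thymidylate route was lower at most of its steps. TYMS, thymidylate synthase, stood at 26.9 TPM in shEIF3F and 116 TPM in shCON (-2.07). DTYMK, which phosphorylates dTMP, stood at 26.9 TPM in shEIF3F and 147.85 TPM in shCON (-2.42). DUT, the dUTPase that keeps uracil out of DNA and yields dUMP for TYMS, stood at 42.1 TPM in shEIF3F and 93.5 TPM in shCON (-1.13). It was less than 2-fold lower after centring (-0.78). DCTD, which makes dUMP from dCMP, was within 2-fold at 22.5 TPM in shEIF3F and 27.3 TPM in shCON (-0.27). TYMS overlaps ENOSF1 on the opposite strand by an exon stretch of up to 719 bases, and the use of strand in counting is not given in the sources used here. ENOSF1 stood at 14.7 TPM in shEIF3F and 25.7 TPM in shCON, and TYMSOS, also opposite TYMS, at 3.32 TPM in shEIF3F and 33.5 TPM in shCON, so reads of these genes and of TYMS may not be told apart.

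Among the deoxynucleoside kinases, TK1, the cytosolic thymidine kinase of dividing cells, stood at 2.39 TPM in shEIF3F and 234 TPM in shCON, 97.8-fold lower (-6.11). Only 5 of the 13306 genes had a lower ratio. TK2, the mitochondrial thymidine kinase that works outside S phase, stood at 7.09 TPM in shEIF3F and 15.8 TPM in shCON (-1.06). DCK, which phosphorylates deoxycytidine and the purine deoxynucleosides, stood at 5.65 TPM in shEIF3F and 15.8 TPM in shCON (-1.33). Both were less than 2-fold lower after centring (-0.70 for TK2 and -0.98 for DCK). TK1 was the more abundant thymidine kinase transcript in shCON and TK2 the more abundant in shEIF3F.

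The deoxynucleotide genes known to be induced in S phase (RRM1, RRM2, TYMS, TK1, DUT and DTYMK) had a median log2 ratio of -2.24, and 6 of 6 were at least 2-fold lower. Those not tied to S phase (RRM2B, TK2, DCK, DCTD and SAMHD1) had a median of -0.93, and 2 of 5 were at least 2-fold lower. The difference of the medians was -1.31, and it lay between -1.57 and -1.03 over the 10 alternatives, of which centring cannot change it. Replication genes were low in the same library: PCNA and MCM2 to MCM7 were at least 2-fold lower in 7 of 7 cases, with a summed level of 189 TPM in shEIF3F and 1233 TPM in shCON and a median ratio of -2.71. The summed level of the 6 S phase deoxynucleotide genes was 115 TPM in shEIF3F and 723 TPM in shCON. The part of a lower share of cycling cells in these ratios was not tested. Without the 6 S phase genes, 14 of the 30 remaining genes were at least 2-fold lower, with a median of -0.95, beside 25.5% of all genes. After centring the count was 8 of 30, with a median of -0.59, beside 16.0% of all genes, and with the GC trend removed it was 8 of 30, with a median of -0.75, beside 13.9%.

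The 250 bases upstream of the start of TK1, RRM2, DTYMK, TYMS, DUT and RRM1 are shown because these 6 genes of the S phase group were all at least 2-fold lower. They are RefSeq sequences (GRCh38.p14), read 5′ to 3′ on the strand of the gene, at the start farthest downstream where RefSeq lists several. Capitals mark matches on either strand to CCAAT (the NF-Y box), TTCCCGC or TTTNGCGC (both forms of the E2F site), none of which overlap one another here.
TK1 (chr17:78187053-78187302, minus strand): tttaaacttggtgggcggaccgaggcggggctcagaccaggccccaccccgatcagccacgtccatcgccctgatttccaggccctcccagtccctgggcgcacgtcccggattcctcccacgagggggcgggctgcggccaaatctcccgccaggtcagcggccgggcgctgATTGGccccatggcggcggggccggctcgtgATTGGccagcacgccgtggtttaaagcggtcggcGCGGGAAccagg
RRM2 (chr2:10122489-10122738, plus strand): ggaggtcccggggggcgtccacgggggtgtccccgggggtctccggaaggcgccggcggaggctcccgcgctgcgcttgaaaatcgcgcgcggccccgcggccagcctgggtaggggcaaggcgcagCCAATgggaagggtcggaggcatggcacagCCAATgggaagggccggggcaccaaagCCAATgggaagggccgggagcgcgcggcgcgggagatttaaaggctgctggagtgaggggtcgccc
DTYMK (chr2:241686816-241687065, minus strand): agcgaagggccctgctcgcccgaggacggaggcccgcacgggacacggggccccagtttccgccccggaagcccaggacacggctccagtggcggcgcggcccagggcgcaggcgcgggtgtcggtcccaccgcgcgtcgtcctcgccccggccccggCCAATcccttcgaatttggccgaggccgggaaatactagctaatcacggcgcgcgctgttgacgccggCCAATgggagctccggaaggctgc
TYMS (chr18:657403-657652, plus strand): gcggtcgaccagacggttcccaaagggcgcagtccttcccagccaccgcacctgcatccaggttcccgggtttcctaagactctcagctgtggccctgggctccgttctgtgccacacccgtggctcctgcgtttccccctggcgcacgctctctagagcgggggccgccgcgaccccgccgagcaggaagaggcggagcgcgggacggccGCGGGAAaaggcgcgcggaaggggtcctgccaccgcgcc
DUT (chr15:48331947-48332196, plus strand): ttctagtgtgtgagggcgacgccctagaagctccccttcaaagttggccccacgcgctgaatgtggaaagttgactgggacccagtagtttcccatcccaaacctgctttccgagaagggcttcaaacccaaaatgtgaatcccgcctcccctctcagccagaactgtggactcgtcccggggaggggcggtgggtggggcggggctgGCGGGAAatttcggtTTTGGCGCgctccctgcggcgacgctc
RRM1 (chr11:4094435-4094684, plus strand): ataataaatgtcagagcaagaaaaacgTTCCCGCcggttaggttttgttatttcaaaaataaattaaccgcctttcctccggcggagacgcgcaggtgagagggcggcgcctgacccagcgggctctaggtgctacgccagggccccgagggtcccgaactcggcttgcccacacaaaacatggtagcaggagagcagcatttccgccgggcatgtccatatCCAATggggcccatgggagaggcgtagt
RRM2 held 3 CCAAT boxes, TK1 held 2 (read as ATTGG) and 1 TTCCCGC near the start, and DTYMK held 2 CCAAT boxes. TYMS held 1 TTCCCGC (read as GCGGGAA), DUT held 1 TTCCCGC and 1 TTTNGCGC close together, and RRM1 held 1 CCAAT and 1 TTCCCGC. Of the 6 S phase genes, 4 held a CCAAT box and 4 a TTCCCGC in this window, where 32.7% and 5.40% of the windows of all 27305 genes held these letters. Over the 33 genes of the set with a window, 10 held CCAAT, 7 held TTCCCGC, 2 held TTTNGCGC (1.50% of all windows) and 4 held the MYC box CACGTG (6.25% of all windows). CACGTG, a palindrome searched once, was found in PPAT, ATIC, DHODH and DCK. The windows and motifs were chosen after the sequences had been seen, and a match is a description, not a site shown to be bound.

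Ring synthesis began with lower PRPP synthetase transcripts. PRPS1 stood at 20.55 TPM in shEIF3F and 43.1 TPM in shCON (-1.03), and PRPS2 at 13.6 TPM in shEIF3F and 31.3 TPM in shCON (-1.15). Both encode isoforms of the enzyme that makes PRPP, and both were less than 2-fold lower after centring (-0.67 and -0.79). Their ratio to each other was close in the 2 libraries, at 1.51 in shEIF3F and 1.38 in shCON.

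Of the 6 purine ring genes, 2 were at least 2-fold lower, GART and PFAS, beside 25.5% of all genes, and 4 were within 2-fold. PPAT, the committed enzyme, stood at 4.76 TPM in shEIF3F and 6.53 TPM in shCON (-0.39). GART, a trifunctional enzyme, stood at 31.2 TPM in shEIF3F and 67.7 TPM in shCON (-1.09). It overlaps SON on the opposite strand by an exon stretch of up to 275 bases. SON stood at 30.6 TPM in shEIF3F and 26.5 TPM in shCON, so reads of GART and SON may not be told apart. PFAS, which adds an amide nitrogen, stood at 7.19 TPM in shEIF3F and 20.1 TPM in shCON (-1.37). GART and PFAS thus lay past 2-fold, while the ratio of PPAT lay near the median of all genes. PAICS, which carries out the following carboxylation and ligation, stood just inside 2-fold at 26.1 TPM in shEIF3F and 51.8 TPM in shCON (-0.96). ADSL, which releases fumarate here and again on the way to AMP, stood at 97.4 TPM in shEIF3F and 90.2 TPM in shCON (0.11). ATIC, which closes the ring to IMP, stood at 169.9 TPM in shEIF3F and 168 TPM in shCON (0.012). PPAT and PAICS lie head to head, with their nearest RefSeq starts 137 bases apart, and differed in ratio by less than 2-fold. After centring, PFAS alone of the 6 was at least 2-fold lower (-1.01), and with the GC trend removed 0 of the 6 were.

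In the branches from IMP to the end products, IMPDH1 and GMPS, both on the GMP side, were the genes at least 2-fold lower. IMPDH1 and IMPDH2 encode the isoforms of IMP dehydrogenase, which commits IMP to GMP. IMPDH1 stood at 33.3 TPM in shEIF3F and 107.6 TPM in shCON (-1.66), whereas IMPDH2, the far more abundant form, stood at 572 TPM in shEIF3F and 797 TPM in shCON (-0.48). The ratio of IMPDH1 was -0.75, inside 2-fold, once the GC trend was removed. GMPS, which aminates XMP to GMP, stood at 7.39 TPM in shEIF3F and 24.9 TPM in shCON (-1.62), and it remained at least 2-fold lower under all 10 alternatives. ADSS, adenylosuccinate synthetase (now named ADSS2) on the AMP side, stood at 4.87 TPM in shEIF3F and 6.65 TPM in shCON (-0.38), close to the median of all genes.

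In pyrimidine synthesis, the genes for the cytosolic ring enzymes differed less than DHODH and CTPS1. CAD, whose protein joins the enzymes of the opening steps in 1 chain, stood at 27.2 TPM in shEIF3F and 42.6 TPM in shCON (-0.63). UMPS, which makes UMP from orotate, stood at 25.1 TPM in shEIF3F and 22.0 TPM in shCON (0.18). Neither passed 2-fold. DHODH, the enzyme of the inner mitochondrial membrane that oxidises dihydroorotate to orotate and passes electrons to ubiquinone, stood at 3.42 TPM in shEIF3F and 18.4 TPM in shCON, 5.39-fold lower (-2.14). CTPS1, the CTP synthetase known for its rise in proliferating lymphocytes, stood at 17.1 TPM in shEIF3F and 50.25 TPM in shCON (-1.50). Its relative CTPS2 was within 2-fold, at 2.26 TPM in shEIF3F and 3.43 TPM in shCON (-0.44). DHODH and CTPS1 were at least 2-fold lower under all 10 alternatives.

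The kinases that raise nucleotides to diphosphates and triphosphates ranged widely in level. NME2, a nucleoside diphosphate kinase and the most abundant transcript of the set in both libraries, stood at 969 TPM in shEIF3F and 2864 TPM in shCON (-1.56), which was 32.9% of the summed level of the 36 genes in shEIF3F and 43.4% in shCON. NME1, its close neighbour in sequence and position, stood at 170.35 TPM in shEIF3F and 273 TPM in shCON (-0.68). A readthrough gene, NME1-NME2, shares exons with both and stood at 9.76 TPM in shEIF3F and 59.6 TPM in shCON, so the split of reads between them is uncertain. The 3 entries together came to 1149 TPM in shEIF3F and 3197 TPM in shCON, 2.78-fold lower. NME2 was less than 2-fold lower with the GC trend removed (-0.80). Without NME1 and NME2 the set summed to 1803 TPM in shEIF3F and 3463 TPM in shCON. CMPK1, which phosphorylates UMP and CMP, stood at 5.19 TPM in shEIF3F and 13.6 TPM in shCON (-1.24), and inside 2-fold after centring (-0.88). GUK1, the guanylate kinase, was level at 418 TPM in shEIF3F and 433 TPM in shCON (-0.049), and lay above 0 at 0.71 with the GC trend removed.

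Salvage of purine bases was carried by APRT and HPRT1 transcripts in unlike measure. APRT, which joins adenine to PRPP, stood at 104.5 TPM in shEIF3F and 574 TPM in shCON, 5.49-fold lower (-2.45), and was the third lowest ratio of the set. HPRT1, which does the same for hypoxanthine and guanine, stood at 18.7 TPM in shEIF3F and 36.8 TPM in shCON, just inside 2-fold (-0.94). APRT was the more abundant in both libraries, with an HPRT1 to APRT ratio of 0.179 in shEIF3F and 0.0641 in shCON. APRT has a transcript GC content of 63.6%, and its ratio was -1.53 with the GC trend removed, still at least 2-fold lower.

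The remaining genes act on nucleotide removal and transport rather than on synthesis. NT5E, the cell surface 5′-nucleotidase CD73 that turns extracellular AMP into adenosine, was the gene of the set at least 2-fold higher, at 24.0 TPM in shEIF3F and 0.93 TPM in shCON. That is 25.8-fold higher in TPM without the pseudocount, and the log2 ratio with it was 3.69. Its ratio lay between 2.29 and 4.55 over the 10 alternatives, a range set by the pseudocount because the shCON value is below 1 TPM. SLC29A1, the equilibrative nucleoside transporter ENT1, stood at 12.6 TPM in shEIF3F and 62.5 TPM in shCON, 4.94-fold lower (-2.22). SAMHD1, which hydrolyses deoxynucleotide triphosphates, stood at 2.72 TPM in shEIF3F and 6.09 TPM in shCON (-0.93). SAMHD1 was inside 2-fold on this scale but not with a pseudocount of 0.1 (-1.13), and its exons overlap TLDC2 on the opposite strand (3.16 TPM in shEIF3F and 0.90 TPM in shCON).

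**Figure D2:**
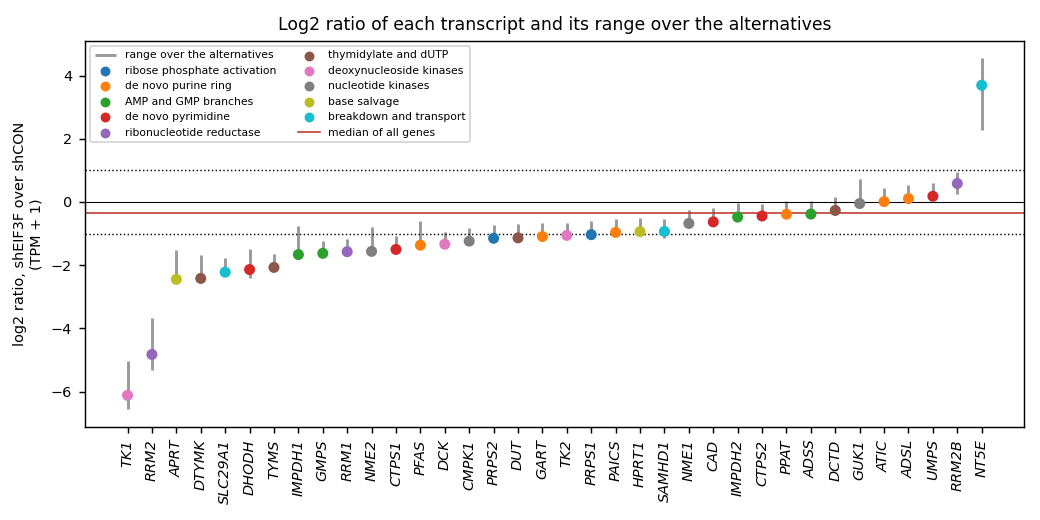
Log2 ratio of shEIF3F over shCON for the 36 transcripts in order of size, coloured by step, with grey bars for the range of values over the alternatives, dotted lines at -1 and 1 and a red line at the median of all genes (-0.36). TK1 (-6.11) and RRM2 (-4.82) lie well below APRT at -2.45, and NT5E (3.69) lies alone above 1.

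Relative levels within a library do not depend on how the libraries are scaled, so related genes were set against each other. The RRM2 to RRM2B ratio was 0.729 in shEIF3F and 55.0 in shCON. The TK1 to TK2 ratio was 0.337 in shEIF3F and 14.8 in shCON. In both pairs the gene of dividing cells was the more abundant in shCON and the less abundant in shEIF3F. CTPS1 exceeded CTPS2 by 7.58 times in shEIF3F and 14.7 times in shCON, and IMPDH1 was 5.50% of IMP dehydrogenase transcripts in shEIF3F and 11.9% in shCON. The NME1 to NME2 ratio moved the other way, at 0.176 in shEIF3F and 0.0954 in shCON, with the limit on shared reads given above.

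**Figure D3:**
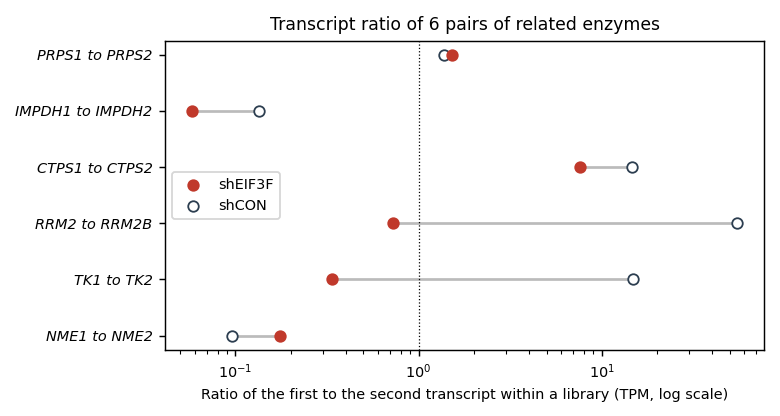
Ratio of the first to the second transcript of 6 pairs of related enzymes within each library, on a log axis, filled points for shEIF3F and open points for shCON, with a dotted line at equal levels. RRM2 to RRM2B and TK1 to TK2 cross the line between the libraries, and PRPS1 to PRPS2 stays near 1.51 in shEIF3F and 1.38 in shCON.

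Summed by step, the deoxynucleoside kinases were furthest apart, at 15.1 TPM in shEIF3F and 265 TPM in shCON, 17.5-fold lower. Ribonucleotide reductase came next at 19.8 TPM in shEIF3F and 134 TPM in shCON, 6.75-fold lower. Each of these sums rests mainly on TK1 or RRM2 in shCON. The purine ring genes were closest, at 337 TPM in shEIF3F and 405 TPM in shCON, a sum held up by the level transcripts of ATIC and ADSL. De novo pyrimidine genes summed to 75.1 TPM in shEIF3F and 136.75 TPM in shCON, and the AMP and GMP branches, mostly IMPDH2, to 618 TPM in shEIF3F and 936 TPM in shCON.

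**Figure D4:**
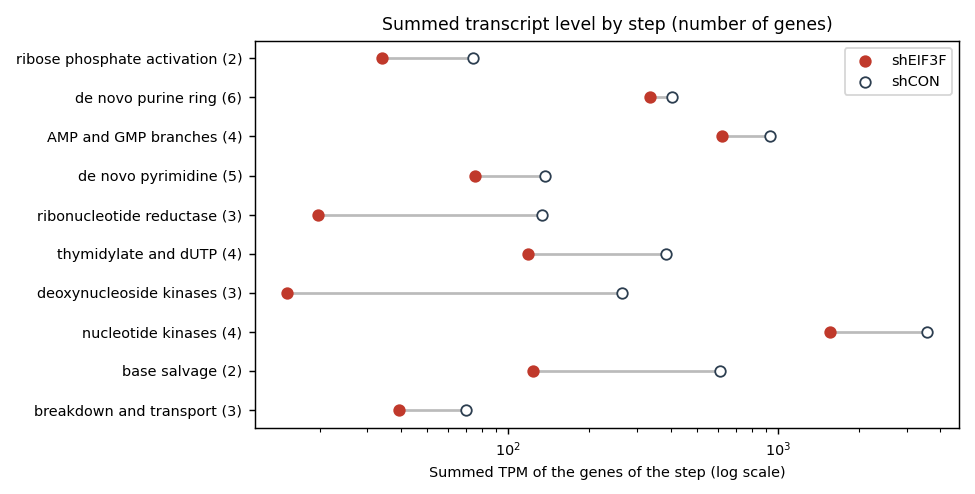
Summed TPM of the genes of each step on a log axis, filled points for shEIF3F and open points for shCON, with the number of genes in brackets. The gap is widest for the deoxynucleoside kinases (15.1 TPM in shEIF3F and 265 TPM in shCON) and narrowest for the purine ring (337 TPM in shEIF3F and 405 TPM in shCON).

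Beyond the 36, another 81 genes of nucleotide metabolism and its folate supply were listed in the table, of which 62 reached the mean of 1 TPM. At least 2-fold lower were 22 (35.5%) and at least 2-fold higher 3 (4.84%), beside 25.5% and 8.43% of all genes, and their median was -0.38, close to that of all genes. After centring the counts were 17 lower and 6 higher, beside 16.0% and 14.7% of all genes. The higher genes made up 26.1% of those past 2-fold after centring and 12.0% as deposited, and over all genes these shares were 47.9% and 24.8%. The lowest median among these lists, -1.67, was that of the folate genes that supply carbon to purines and thymidylate, where 6 of 8 were at least 2-fold lower. SHMT1, the cytosolic serine hydroxymethyltransferase, stood at 9.26 TPM in shEIF3F and 108 TPM in shCON (-3.41). SHMT2 and MTHFD2, mitochondrial enzymes of the same cycle, had ratios of -2.21 and -1.86.

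Of 15 genes listed as nucleotidases or triphosphate cleansing enzymes, 8 were at least 2-fold lower, 1 was higher and 6 were within 2-fold. Their median was -1.03, beside 25.5% lower and a median of -0.36 for all genes. The list joins enzymes of unlike roles, with ENTPD genes, some of them for surface enzymes, among both the higher and the lower. With the GC trend removed, 5 of 15 were lower, with a median of -0.53, beside 13.9% of all genes. NUDT1, also called MTH1, which hydrolyses oxidised purine triphosphates, stood at 7.65 TPM in shEIF3F and 212 TPM in shCON (-4.62). DNPH1, which cleaves deoxynucleoside monophosphates, had a ratio of -2.31, DCTPP1, a dCTP pyrophosphatase, of -2.27 and NT5M, a mitochondrial deoxynucleotidase, of -2.29. In the other lists most genes were within 2-fold. Of 18 phosphate transfer kinases, 4 were at least 2-fold lower and 2 higher, with UCK1, a uridine-cytidine kinase, at -1.81, NME3 at -1.60 and AK6 at 1.09. This count of lower genes, and that of the salvage genes, did not exceed the 25.5% of all genes. Of 12 salvage and interconversion genes, 2 were lower: TYMP, thymidine phosphorylase, at -2.11 and PNP, purine nucleoside phosphorylase, at -1.91. Among the carriers, the nucleoside transporter SLC29A4 was lower (-1.09). Once the GC trend was removed, NME3 (-0.45), TYMP (-0.96) and SLC29A4 (-0.36) were within 2-fold. The partners of PRPP synthetase, PRPSAP1 and PRPSAP2, were within 2-fold.

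Luminal prostate markers were listed in both libraries, among them the keratins KRT8, at 347 TPM in shEIF3F and 301 TPM in shCON, and KRT18, at 336 TPM in shEIF3F and 173 TPM in shCON. HOXB13 stood at 44.4 TPM in shEIF3F and 105 TPM in shCON, EPCAM at 60.5 TPM in shEIF3F and 17.5 TPM in shCON, and KLK3 at 1.94 TPM in shEIF3F and 9.71 TPM in shCON. Endothelial markers summed to 0.05 TPM in shEIF3F and 0.01 TPM in shCON, with VWF, CDH5 and KDR at 0 in both, and the leukocyte marker PTPRC stood at 0.03 TPM in shEIF3F and 0.11 TPM in shCON. Fibroblast markers summed to 27.2 TPM in shEIF3F and 40.9 TPM in shCON, nearly all LUM and DCN, and COL1A1 was at 0.83 TPM in shEIF3F and 2.43 TPM in shCON. The top 100 genes by abundance took 59.7% of all TPM in shEIF3F and 45.4% in shCON. The median ratio went with GC content, at 0.078 in the lowest of 20 GC bins (median 36.5% GC) and -1.15 in the highest (66.5% GC). Of the 36 genes, 14 share an exon stretch with another annotated gene, 8 of them with a gene at 1 TPM or more in a library, and the 37 pseudogene copies named after 11 of the genes reached at most 0.45 TPM.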

How the data were processed

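Total RNA of 22Rv1 cells was extracted with Trizol and made into libraries with an Illumina TruSeq kit, per the labels' protocols. The submitters' processing notes name CASAVA and HISAT2, without versions, and the build hg19. Not given in the sources used here is how genes were counted, on which annotation, with or without strand and after what filters. The authors deposited 1 TPM value per gene and library, to 2 decimals, with sums of 994055 in shEIF3F and 992454 in shCON. Read numbers cannot be had from TPM, so the depth is unknown and counting error has no interval here. The columns were matched to samples by the sample descriptions.

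Entries of the same symbol were summed (1533 repeats), 27 entries turned into dates by spreadsheet software and 6052 small RNA symbols were left out, and genes were kept where the mean of the libraries reached 1 TPM. A pseudocount of 1 TPM was used. Gene type, exon overlap, and the GC content and length of the longest transcript came from GENCODE release 29 (GRCh38, so no coordinates of the files' build are given); GC was known for 97.9% of genes tested and all 36 members. Promoter windows came from RefSeq, and 33 of 36 genes matched. The genes, lists and alternatives were chosen with earlier results of these data known. Named genes were all 36 members, and in each wider list up to 4 genes whose mean reached 5 TPM, with the largest absolute log2 ratios of at least 1; some genes and markers that were covered are not reported here. Alternatives were pseudocounts of 0.1 and 5, no minimum or a mean of 5 TPM, centring, rescaling without the 100 most abundant genes, the most abundant entry per symbol, small RNA genes kept, and GC or length trends removed by centring within 20 bins. Calculations used Python 3.11.15, NumPy 2.4.6 and pandas 2.3.3, and were tested on simulated data. Figures were drawn with matplotlib 3.10.9.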

Additional observations from a re-analysis of the deposited data

How the results depend on the processing

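Over 10 alternatives, 10 of the 20 lower genes (GMPS, DHODH, CTPS1, RRM1, RRM2, TYMS, DTYMK, TK1, APRT and SLC29A1) stayed at least 2-fold lower and NT5E at least 2-fold higher in each, and no ratio past 2-fold changed sign. Of the 31 genes below 0, 27 stayed there in each; PPAT, ADSS, DCTD and GUK1 did not. The count of lower genes, 20 as reported, was 13 after centring, 12 after rescaling without the 100 most abundant genes and 13 with the length trend removed. The share of all genes at least 2-fold lower also fell, from 25.5% as reported to 16.0% after centring. That share was not computed for rescaling or for the length trend. The median of -1.07 was -0.89 with a pseudocount of 5, -0.72 after centring, -0.66 after rescaling, -0.80 with the GC trend removed and -0.71 with the length trend removed. In the wider lists, the 22 lower genes of 62 were 14 with the GC trend removed, beside 25.5% of all genes as reported and 13.9% with that trend removed. The 3 higher genes there were 5 with a pseudocount of 0.1, 1 with a pseudocount of 5, 1 at a mean of 5 TPM or more, 6 after centring, 7 after rescaling, 5 with the GC trend removed and 6 with the length trend removed. The difference in ratio between IMPDH1 and IMPDH2 (-1.18) was -0.64 with the GC trend removed, and that between CTPS1 and CTPS2 (-1.06) was -0.97 with a pseudocount of 0.1 and -0.96 after rescaling. Centring adds 0.36 to each ratio by construction. Rescaling multiplies each library by 1 factor, which shifts the log2 ratios by 0.43 before the pseudocount is added. The cause of the other moves was not tested. With no filter, with small RNA genes kept and with the most abundant entry per symbol, all 36 genes kept their side of 2-fold. At a mean of 5 TPM or more, CTPS2, RRM2B and SAMHD1 have no value. No paired analysis was possible because each group has 1 library. Depth is unknown, which limits most the values near 1 TPM, such as NT5E in shCON and RRM2B.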

Other observations

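Of the surface enzymes named here that act on nucleotides outside the cell, NT5E and ENTPD3 were higher. Both reached the minimum only through their level in shEIF3F, so no pattern over these enzymes can be read from it. The genes named for adenosine use and nucleoside transport were within 2-fold or lower. NT5E, which makes adenosine from AMP at the cell surface, was higher, and so was ENTPD3, a surface enzyme that cleaves nucleoside triphosphates, at 7.0 TPM in shEIF3F and 0.09 TPM in shCON (log2 ratio 2.88). ENTPD3 was chosen after its values were seen. The related surface enzymes ENTPD1, ENTPD2 and ENTPD8 were below the minimum, and each was lower in shEIF3F than in shCON. ENTPD1 stood at 0.57 TPM in shEIF3F and 1.0 TPM in shCON. ENTPD2 stood at 0.26 TPM in shEIF3F and 1.73 TPM in shCON, and ENTPD8 at 0.02 TPM in shEIF3F and 0.09 TPM in shCON. Adenosine deaminase ADA was level at 6.64 TPM in shEIF3F and 6.5 TPM in shCON (0.027), and adenosine kinase ADK stood at 29.2 TPM in shEIF3F and 22.8 TPM in shCON (0.34). SLC29A1 was lower, and so was SLC29A4 (-1.09, and -0.36 with the GC trend removed). SLC29A2, another equilibrative transporter of the plasma membrane, was within 2-fold at 46.5 TPM in shEIF3F and 70.95 TPM in shCON (-0.60). These genes were named here after their values were seen.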
